A study of Mus musculus with 10 samples.

Results

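The receptors through which EGF and FGF2 act on neural stem and progenitor cells (NSPCs) were followed at the level of chromatin. They are the EGF receptor family (*Egfr*, *Erbb2*, *Erbb3* and *Erbb4*) and the FGF receptors *Fgfr1*, *Fgfr2* and *Fgfr3*, and the growth factors *Fgf1* and *Fgf2* were taken with them. Accessible sites of these 9 genes were collected from the peak lists of all 6 ATAC-seq libraries. A site belonged to a gene if it lay in the gene body or within 50 kb of it and if the nearest coding transcription start site (TSS) was that of the gene. This gave 117 of the 108367 sites in the data, and 83 of the 74759 sites that had a peak in 2 or more libraries. The nearest TSS names a neighbour and not a target.

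The cells were primary NSPCs of C57BL/6 mice at postnatal day 5, grown in culture. Activated NSPCs received 20 ng/ml each of FGF2 and EGF, whereas quiescent NSPCs received 20 ng/ml FGF2, no EGF and 25 ng/ml BMP4, a bone morphogenetic protein that takes these cells out of the cell cycle. The labels give 4 days of BMP4 and the methods a shorter time before ATAC-seq. Reactivated NSPCs spent 4 days with BMP4, followed by 9 to 12 days with the activating factors. Thus FGF2 was present in all 3 states, and EGF was absent, and BMP4 present, only in quiescence, so that the effects of EGF and of BMP4 cannot be told apart. There were 2 independent ATAC-seq libraries for each state, and 1 H3K4me3 ChIP-seq library each for quiescent and activated NSPCs.

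ERBB proteins and FGF receptors are receptor tyrosine kinases. A ligand brings 2 receptor molecules together, the kinases phosphorylate each other, and adaptor proteins pass the signal on to the RAS-MAPK and PI3K pathways. EGFR binds EGF, ERBB2 has no known ligand of its own and acts as a partner, ERBB3 has a weak kinase, and ERBB3 and ERBB4 bind neuregulins. In the adult ventricular-subventricular zone, EGFR marks activated stem cells and their progeny, while FGFR3 is known from astrocytes and radial glia. ATAC-seq shows where DNA is open to a transposase, and H3K4me3 marks the promoters of active or poised genes. Neither measures RNA or protein.

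The value used for a site in a library is the fold enrichment of its highest peak over the background that MACS, the peak caller, estimated in that library. The lists held 47323 to 107137 peaks, and the longest were those of reactivated NSPCs. The lists give no read counts, so a missing peak means that none was called and not that the DNA was closed. The lowest fold enrichment called ranged from 1.20 to 1.34 among the ATAC-seq lists. In a mixed culture, fewer cells with an open site and a less open site in each cell cannot be told apart. Among NSPC markers, *Sox2*, *Nes*, *Vim*, *Fabp7* and *Olig2* had a promoter peak in all 6 libraries, *Slc1a3* in 4, and *Gfap* in none. Markers of other cell types were open as well. Promoters of the neuronal genes *Tubb3*, *Snap25* and *Syt1* had a peak in all 6 libraries and that of *Rbfox3* in 3. Of 4 microglial markers, *P2ry12* had a promoter peak in 5 libraries (fold enrichment of 2.06 to 9.61), *Cx3cr1* in 1, and *Aif1* and *Csf1r* in none. The mesenchymal marker *Col1a1* had one in 5 libraries, with H3K4me3 in both states, and *Pdgfrb* and *Dcn* in 2 each. The oligodendrocyte marker *Mbp* had one in 3 libraries, *Mog* in none, and the endothelial *Cldn5*, *Pecam1* and *Cdh5* in none.

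Most receptor genes had sites in every state, and the sites differed in how many libraries called them. Of the 83 sites, 38 were shared, that is, with a peak in at least 1 quiescent and 1 activated library. This is 45.8% and close to the background of 46.4% among all sites. There were 7 sites specific to quiescence (8.43%, background 9.08%), with a peak in both quiescent libraries and in no activated one. There were 4 sites specific to activation (4.82%, background 6.14%), by the same rule reversed. Both counts were larger with some libraries left out, and the ranges are given at the end. A further 15 sites had peaks in both reactivated libraries only (18.1%, background 21.4%), and 19 had other combinations (22.9%, background 17.02%). The shares of shared, quiescent-specific, activated-specific and reactivated-only sites each lay near their background. That of the other combinations lay above its background. No test was run on these shares, so the counts are no result about these genes. *Fgf1* had 21 sites, *Egfr* and *Erbb4* 14 each, *Fgfr2* 10, *Fgfr1* 9, *Fgfr3* 7, *Erbb3* and *Fgf2* 3 each, and *Erbb2* 2.

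**Figure D1:**
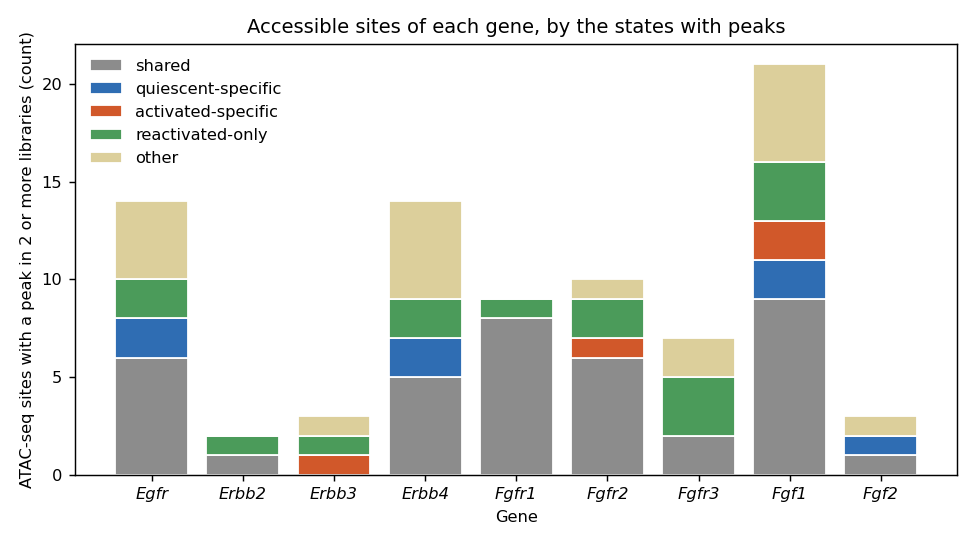
Number of ATAC-seq sites of each gene with a peak in 2 or more libraries, coloured by the states in which peaks were called. *Fgfr1* had 8 shared sites of 9 and none specific to quiescence or activation, whereas *Fgf1* had 2 of each.

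Of the 7 quiescent-specific sites, 4 had a peak in both reactivated libraries (background 55.0% of all quiescent-specific sites) and 3 in 1 of them. Of the 4 activated-specific sites, 3 had a peak in both (background 91.9%). The exception was the site of *Erbb3*, which had no peak in either reactivated library. No test was run on so few sites.

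The promoters came first in the comparison of states. A promoter site was one of which any part lay within 1 kb of a coding TSS of its gene. At *Egfr*, *Erbb2*, *Erbb4*, *Fgfr1*, *Fgfr2*, *Fgfr3* and *Fgf1*, all 6 libraries had a promoter peak, which 52.2% of coding genes had. All 9 genes had promoter H3K4me3 in both states, as did 59.3% of coding genes. H3K4me3 was high at *Fgfr3* (fold enrichment of 61.9 in quiescent and 59.9 in activated NSPCs), *Egfr* (53.9 and 60.4) and *Fgfr1* (51.3 and 55.1). It was lower at *Fgf2* (16.7 and 15.5) and *Fgf1* (14.1 and 12.1). With 1 H3K4me3 library per state, these differences have no replicate check.

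The promoter of *Egfr* (chr11:16751935-16753203 in mm10) had fold enrichments of 6.49 and 6.88 in the quiescent libraries, 9.17 and 9.29 in the activated ones and 13.8 and 11.9 in the reactivated ones. The 3 states did not overlap before normalization. The libraries as a whole moved in the same order, with a median fold enrichment of 3.52 and 4.16 in the quiescent lists and 4.86 and 4.92 in the reactivated ones. After normalization the *Egfr* promoter was 0.28 ± 0.17 (SE) log2 units higher in activated than in quiescent NSPCs, which was not called (limma, n = 2 per state, adjusted p = 0.337). At the *Fgfr1* promoter (chr8:25518575-25519842) the difference was 0.05 ± 0.15 (limma, adjusted p = 0.889), and at the *Fgfr3* promoter (chr5:33721510-33722351) −0.15 ± 0.23 (limma, adjusted p = 0.730).

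The promoter of *Erbb2* (chr11:98412249-98413121) was among the weaker ones, at 3.37 and 2.22 in the quiescent libraries, 3.58 and 4.06 in the activated ones and 9.50 and 7.52 in the reactivated ones. The quiescent and activated values overlapped after normalization, with a difference of 0.30 ± 0.24 log2 units (limma, adjusted p = 0.476). Reactivated NSPCs were higher than quiescent ones by 0.90 ± 0.24 log2 units (limma, adjusted p = 0.0103), a comparison in which 13.9% of all tested sites were higher. Of the 8 tested promoter sites it was the only one called in any comparison of states, and this comparison was added after its values were seen. The call was kept in 8 of 12 alternatives, with differences of 0.52 to 1.63, and was lost without quiescent replicate 2 (0.59, limma adjusted p = 0.178) or reactivated replicate 1 (0.75, 0.110). The main promoter site of *Fgfr2* (chr7:130265751-130266503) differed by 0.20 ± 0.25 log2 units (limma, adjusted p = 0.664). *Erbb4* had 4 promoter sites in a row. Their peaks were at most 4.21 in the quiescent, 3.85 in the activated and 5.00 in the reactivated libraries, and none was called in all 6 libraries.

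*Erbb3* and *Fgf2* stood apart. At *Erbb3*, no quiescent library had an ATAC-seq peak at the promoter. The site at chr10:128590115-128590681, upstream of the TSS, had fold enrichments of 2.92 in activated replicate 2 and of 4.86 and 4.93 in reactivated NSPCs. The same promoter carried H3K4me3 at a fold enrichment of 33.1 in quiescent and 32.3 in activated NSPCs, above the medians of the lists (28.3 in each). At *Fgf2* the 5′ promoter (chr3:37348243-37349137) had a peak of 3.16 in quiescent replicate 1 and of 6.58 and 8.15 in reactivated NSPCs, but none in quiescent replicate 2 or in either activated library. Both promoters were therefore marked by H3K4me3 in states where no ATAC-seq peak was called in 1 or more libraries.

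**Figure D2:**
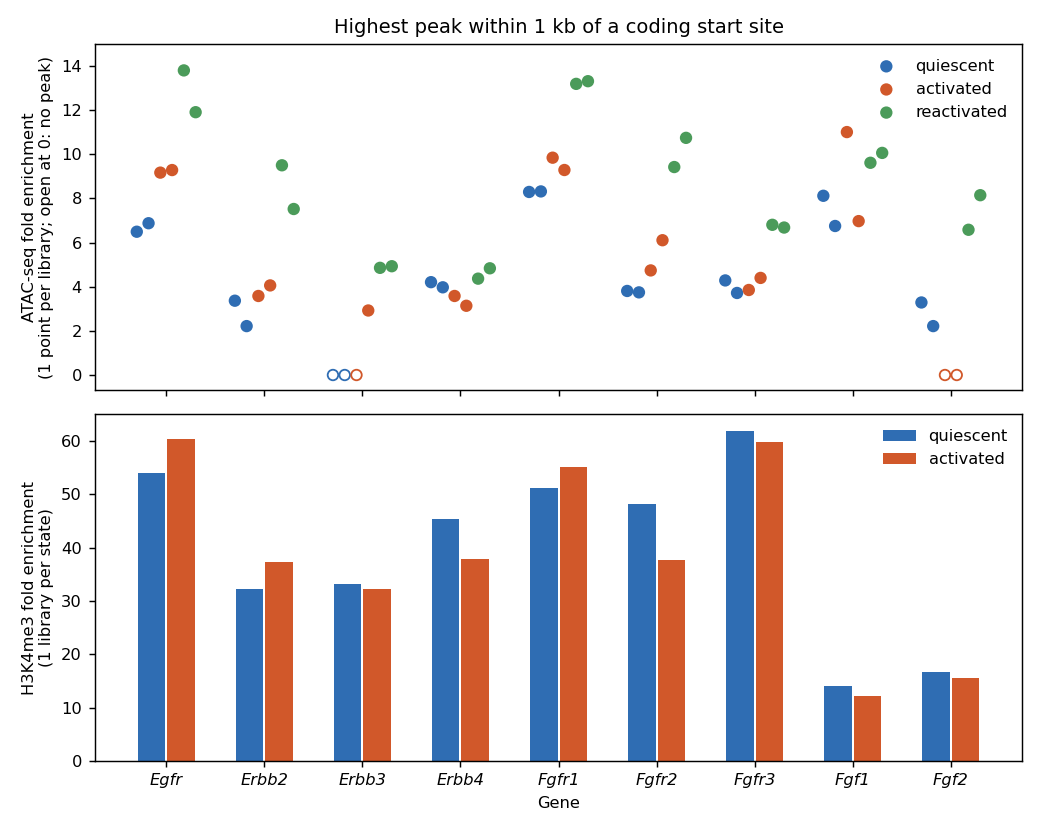
Upper panel, fold enrichment of the highest ATAC-seq peak within 1 kb of a coding TSS of each gene (1 point per library, open points at 0 for no peak); lower panel, fold enrichment of promoter H3K4me3 (bars, 1 library per state). *Erbb3* lacked a peak in 3 libraries and *Fgf2* in both activated libraries, while H3K4me3 was present at all 9 genes.

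Of the 83 sites, 25 had a peak in all 6 libraries and could be tested with limma, along with all 23116 such sites in the data. Sites without a peak in some library were not tested. The count below therefore leaves out every quiescent-specific, activated-specific and reactivated-only site. It also leaves out the shared and other sites that lacked a peak in any library. Between activated and quiescent NSPCs, 8 of the 25 sites were higher in activated NSPCs (32.0%, background 6.73%) and 2 were lower (8%, background 5.50%). The counts fell under some alternatives, as did the background. Higher were 4 of 28 sites without quiescent replicate 1 (background 4.85%), 4 of 25 without quiescent replicate 2 (4.56%), 4 of 26 without activated replicate 1 (4.68%) and 4 of 29 without activated replicate 2 (4.61%). With any library left out, 0 or 1 was lower. With the peaks of a site averaged, 3 of 25 were higher (background 2.91%) and 0 lower (2.06%). The median difference was 0.30 log2 units for the 25 sites and −0.01 for all sites tested. After normalization the quiescent and activated groups did not overlap at 15 of the 25 sites, some of them not called. The share among all sites tested was not counted. A lack of overlap is therefore given below as a description and not as support for a call. Higher were 6 of the 13 tested sites of FGF receptors, 1 of 5 of the EGF receptor family (at *Egfr*) and 1 of 7 of *Fgf1*. With RefSeq in place of GENCODE gene bodies, 6 of 22 sites were higher, 4 of them among 10 of FGF receptors, and 2 were lower.

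None of the 10 called sites was a promoter site. By the distance of the midpoint, 18 tested sites lay over 1 kb from a coding TSS, of which 1, the site 1.1 kb upstream of *Fgf1*, counted as a promoter site by its edge. Of these 18, 8 were higher (background 10.8% at that distance) and 2 were lower (background 8.40%). Of 7 tested sites within 1 kb, limma called none (background 2.29% higher and 2.34% lower), and 1 had an unadjusted p under 0.05. That site was the internal promoter of *Fgf1*, described with that gene.

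**Figure D3:**
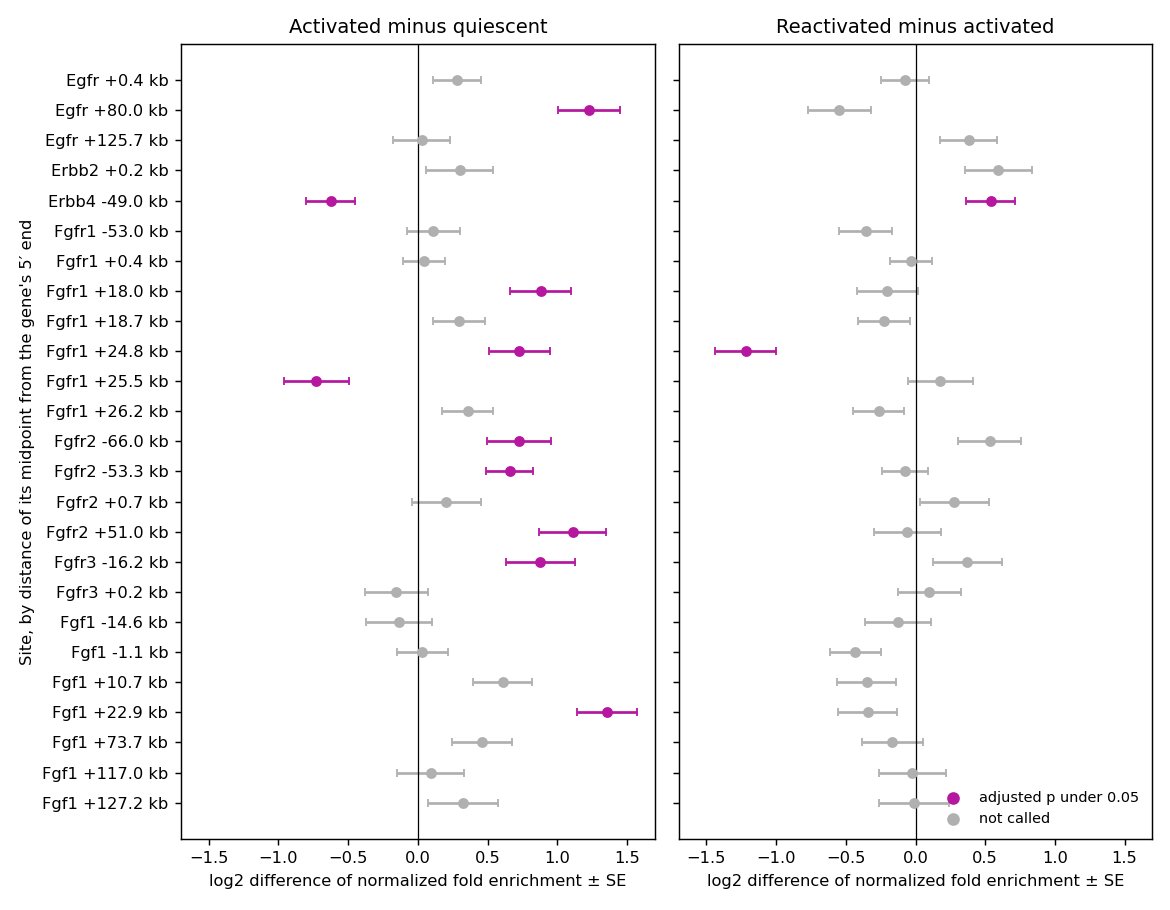
Log2 difference of normalized fold enrichment (points, bars are SE) at the 25 sites with a peak in all 6 libraries, for activated minus quiescent (left) and reactivated minus activated NSPCs (right). Called sites are in magenta: 8 higher and 2 lower on the left, 1 higher and 1 lower on the right.

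*Egfr* had the clearest change from quiescent to activated NSPCs among the receptors, at an intronic site 80.0 kb downstream of the 5′ end (chr11:16831807-16832523). The fold enrichments were 3.16 and 4.81 in the quiescent libraries, 10.6 and 10.9 in the activated ones and 12.6 and 10.4 in the reactivated ones. Both activated values lay above both quiescent ones, and the groups did not overlap. After normalization the site was 1.23 ± 0.22 log2 units (SE) higher in activated than in quiescent NSPCs, a 2.35-fold difference (limma, n = 2 per state, adjusted p = 9.2e-04). It was called in all 12 alternatives that gave a value, with log2 differences of 0.91 to 1.56. Reactivated and activated NSPCs differed by −0.55 ± 0.22 log2 units, which was not called (limma, adjusted p = 0.10). A weak H3K4me3 region met the site in each state. In quiescent NSPCs (fold enrichment of 4.66) it covered 548 of the 717 bp and the summit, whereas in activated NSPCs (5.21) it reached only 69 bp into the edge of the site and missed the summit.

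The other intronic sites of *Egfr* were weaker. Quiescent-specific sites lay 71.8 kb (chr11:16823833-16824142) and 43.0 kb (chr11:16795163-16795342) downstream of the 5′ end. The first had fold enrichments of 3.42 and 3.52 in quiescent NSPCs, no peak in activated NSPCs and 6.76 and 7.31 in reactivated NSPCs. The second had 3.16 and 2.90 in quiescent NSPCs and 4.83 in reactivated replicate 2 alone. So the first was open in quiescent and reactivated NSPCs, next to the site with the activated gain. A coding start further down the gene (chr11:16877604-16878281) was open in all libraries at 2.45 to 5.07 and did not differ between activated and quiescent NSPCs beyond its error, with a difference of 0.03 ± 0.21 log2 units (limma, adjusted p = 0.956).

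**Figure D4:**
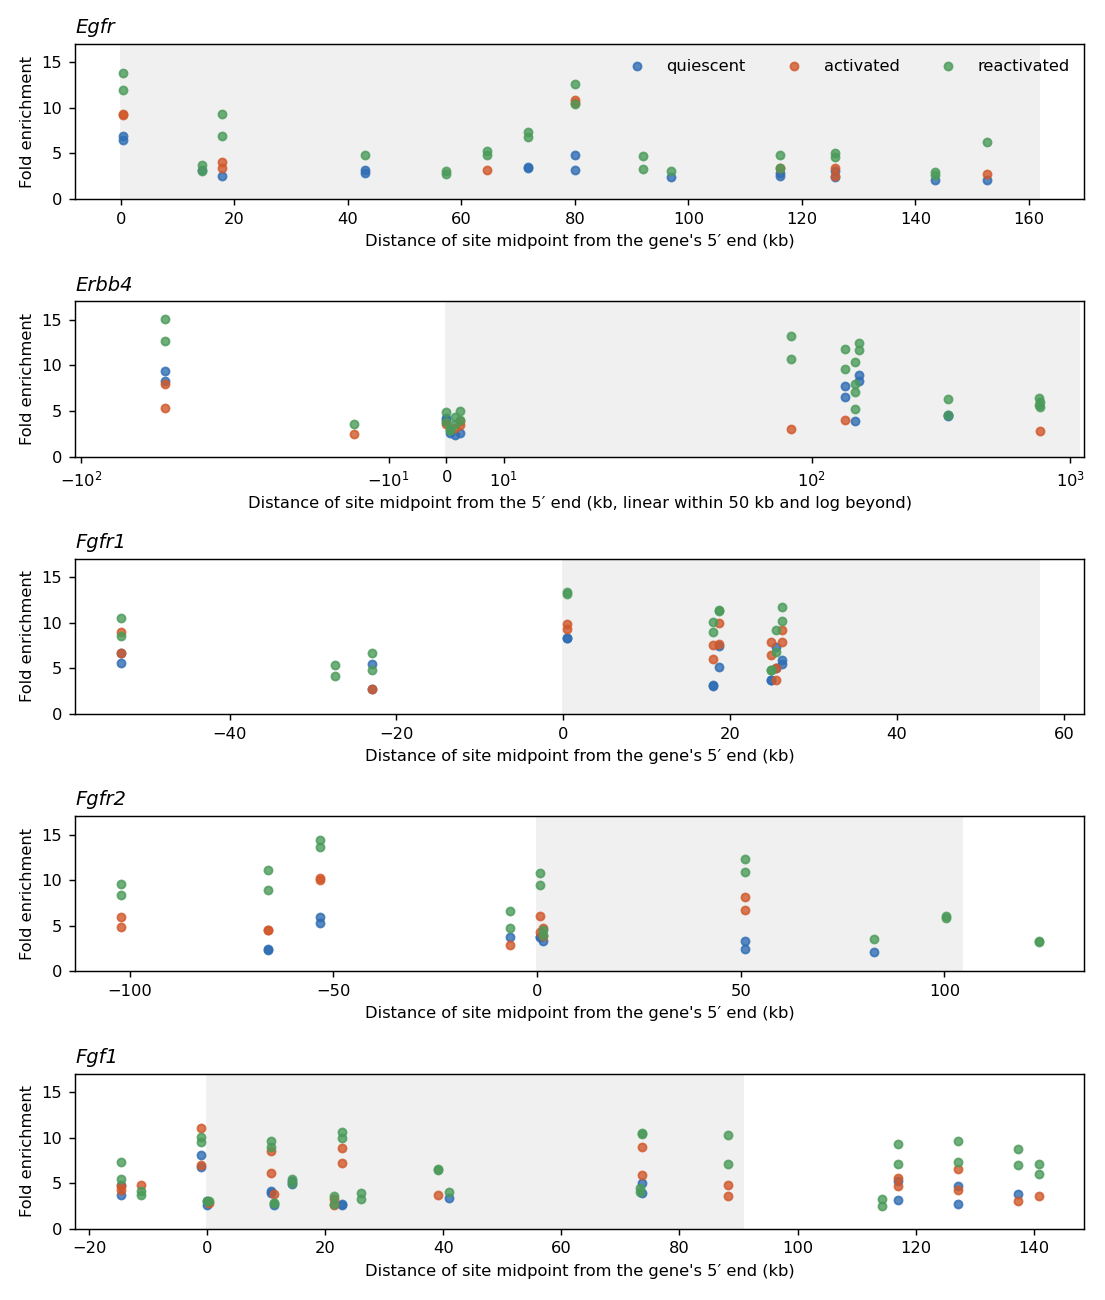
Fold enrichment of each ATAC-seq site with a peak in 2 or more libraries against the distance of its midpoint from the 5′ end of the gene, for 5 genes (1 point per library with a peak; the grey band is the RefSeq gene body, and *Erbb4* has a log scale beyond 50 kb). At *Egfr* the activated libraries reach 10.6 and 10.9 at 80.0 kb, and at *Erbb4* the quiescent libraries reach 8.94 and 8.33 at 152.9 kb, where no activated library had a peak.

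*Erbb4*, a neuregulin receptor, has a body of 1076.7 kb. An intronic site 152.9 kb downstream of the 5′ end (chr1:68955417-68955954) had fold enrichments of 8.94 and 8.33 in quiescent NSPCs and of 12.4 and 11.7 in reactivated NSPCs, and no peak in activated NSPCs. It was the strongest quiescent-specific site of the receptors by its mean rank within the lists. A second one lay 335.0 kb downstream (chr1:68773427-68773690), with 4.47 and 4.51 in quiescent and 4.54 and 6.25 in reactivated NSPCs. A neighbour of the first (chr1:68973603-68974119) was shared, with 7.76 and 6.50 in quiescent NSPCs. It had 3.98 in activated replicate 1, no peak in activated replicate 2, and 9.61 and 11.8 in reactivated NSPCs. No site of *Erbb4* was specific to activation.

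Upstream of *Erbb4*, a site 49.0 kb from the 5′ end in intergenic sequence (chr1:69157345-69157745) had fold enrichments of 9.33 and 8.25 in the quiescent libraries, 7.96 and 5.28 in the activated ones and 15.1 and 12.6 in the reactivated ones. The activated values lay below those of both other states. It was lower in activated than in quiescent NSPCs by −0.63 ± 0.18 log2 units (limma, adjusted p = 0.0233) and higher in reactivated than in activated NSPCs by 0.54 ± 0.18 (limma, adjusted p = 0.0444). Both calls were frail. The first was kept in 6 of 13 alternatives and was lost without quiescent replicate 1 (−0.60, limma adjusted p = 0.114), quiescent replicate 2 (−0.72, 0.0594) or activated replicate 2 (−0.43, 0.179). The second was kept in 4 of 13, and its difference ranged from 0.36 (limma adjusted p = 0.415) without reactivated replicate 1 to 1.09. It was also lost without quiescent replicate 1 (0.51, 0.0679), quiescent replicate 2 (0.52, 0.0606), activated replicate 2 (0.40, 0.190) or reactivated replicate 2 (0.71, 0.0873).

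The sequences of sites on which these results turn are shown here as 200 bases around the summit, from GRCm38.p6 on the plus strand, 5′ to 3′. Capitals mark exact matches on either strand to motif cores: TTGGC (NFI core), CAGCTG (an E-box), TGANTCA (AP-1) and CATTGT (SOX). The first is the activated gain of *Egfr* (chr11:16831994-16832193), with 1 E-box and 1 NFI core that do not overlap. The second is its quiescent-specific neighbour (chr11:16823893-16824092), with 1 NFI core. The third is the strongest quiescent-specific site of *Erbb4* (chr1:68955569-68955768), with 1 E-box.
Egfr gain: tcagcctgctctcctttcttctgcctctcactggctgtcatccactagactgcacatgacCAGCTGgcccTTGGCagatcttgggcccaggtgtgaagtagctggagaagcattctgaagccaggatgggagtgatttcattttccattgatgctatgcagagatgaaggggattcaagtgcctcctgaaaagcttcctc
Egfr quiescent-specific: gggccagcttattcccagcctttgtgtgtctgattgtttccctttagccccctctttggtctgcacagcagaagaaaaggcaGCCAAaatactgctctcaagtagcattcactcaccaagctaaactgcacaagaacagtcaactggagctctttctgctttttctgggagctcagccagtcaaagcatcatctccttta
Erbb4 quiescent-specific: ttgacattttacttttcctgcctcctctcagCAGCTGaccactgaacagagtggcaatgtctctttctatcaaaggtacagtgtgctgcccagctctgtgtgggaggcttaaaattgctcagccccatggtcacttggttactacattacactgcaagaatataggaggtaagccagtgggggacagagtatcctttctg

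*Erbb2* and *Erbb3* had few sites. Beside its promoter, *Erbb2* had only a reactivated site 2.92 kb upstream (chr11:98409450-98409680), with 3.56 and 3.35. *Erbb3* had an activated-specific site 3.46 kb upstream (chr10:128592996-128593205), with 3.32 and 3.18 in activated NSPCs and no peak elsewhere. No site of *Erbb3* was called in all 6 libraries, and none in quiescent NSPCs.

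*Fgfr1*, the receptor with the most tested sites, had 7 of its 9 sites open in all 6 libraries. Of these, 5 lay in introns between 18 and 26.2 kb downstream of the 5′ end, as 2 groups of neighbours that did not move alike. In the first group, the site at 18 kb (chr8:25536472-25537014) had fold enrichments of 3.01 and 3.21 in the quiescent libraries, 7.56 and 5.97 in the activated ones and 10.1 and 8.97 in the reactivated ones. It was 0.88 ± 0.22 log2 units higher in activated than in quiescent NSPCs (limma, adjusted p = 0.0106), with no overlap of the groups. Its neighbour at 18.7 kb was not called, with a difference of 0.29 ± 0.19 log2 units (limma, adjusted p = 0.350). The call at 18 kb was kept in 9 of 12 alternatives. It was lost without quiescent replicate 1 (0.74, limma adjusted p = 0.0862) or activated replicate 1 (0.82, 0.0638).

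The second group had 3 sites. The site at 24.8 kb (chr8:25543335-25543865) had fold enrichments of 3.73 and 3.73 in the quiescent libraries, 7.86 and 6.48 in the activated ones and 4.80 and 4.78 in the reactivated ones. The activated libraries were the highest and did not overlap either of the other states. It was higher in activated than in quiescent NSPCs by 0.73 ± 0.22 log2 units (limma, adjusted p = 0.0340) and lower in reactivated than in activated NSPCs, with a difference of −1.22 ± 0.22 (limma, adjusted p = 0.0021). The fall in reactivated NSPCs was called in all 12 alternatives that gave a value, with log2 differences of −1.35 to −0.58.

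The next site, at 25.5 kb (chr8:25544085-25544431), went the other way between quiescent and activated NSPCs. Its fold enrichments were 7.29 and 5.07 in the quiescent libraries, 5.07 and 3.67 in the activated ones and 6.84 and 9.24 in the reactivated ones. After normalization the quiescent and activated values did not overlap, and the site was lower in activated NSPCs by −0.73 ± 0.23 log2 units (limma, adjusted p = 0.0448). The third site of the group, at 26.2 kb, was not called, with 0.36 ± 0.18 log2 units (limma, adjusted p = 0.224). A single H3K4me3 region covered the whole group in each state, at a fold enrichment of 6.20 in quiescent (chr8:25542937-25545611) and 5.05 in activated NSPCs.

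Both calls of activated against quiescent in this group lay close to the threshold. The call at 24.8 kb was kept in 5 of 12 alternatives and lost with each library left out, with limma adjusted p-values of 0.0639 to 0.181 and log2 differences of 0.62 to 0.85. The call at 25.5 kb was kept in 2 of 12 and lost with each library left out, with limma adjusted p-values of 0.0597 to 0.273 and differences of −0.92 to −0.55. Neither difference changed sign.

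**Figure D5:**
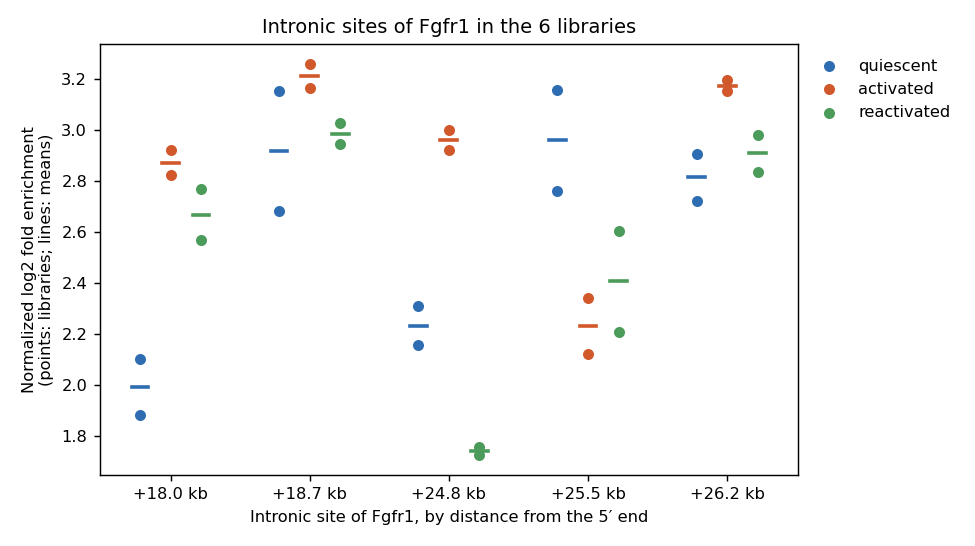
Normalized log2 fold enrichment of the 5 intronic sites of *Fgfr1* in each library (points) with the mean of each state (lines). At 24.8 kb the activated libraries are the highest and the reactivated ones the lowest, and at 25.5 kb the quiescent libraries are the highest.

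The opposed sites of *Fgfr1* are printed in the same form, because they lie side by side in 1 intron cluster and differ in direction. The site at 24.8 kb (chr8:25543593-25543792) held 1 E-box and no NFI core. The site at 25.5 kb (chr8:25544183-25544382) held 1 E-box and 2 NFI cores. Their GC contents were 60.5% and 56.5%.
Fgfr1 higher in activated: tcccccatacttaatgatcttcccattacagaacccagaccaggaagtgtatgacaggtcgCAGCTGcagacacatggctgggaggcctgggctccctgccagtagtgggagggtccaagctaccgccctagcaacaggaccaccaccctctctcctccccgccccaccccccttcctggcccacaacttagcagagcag
Fgfr1 lower in activated: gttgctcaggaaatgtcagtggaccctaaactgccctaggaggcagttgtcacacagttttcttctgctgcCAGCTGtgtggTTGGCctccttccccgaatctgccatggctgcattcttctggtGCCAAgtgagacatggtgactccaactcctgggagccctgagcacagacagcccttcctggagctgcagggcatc

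*Fgfr2* was higher in activated than in quiescent NSPCs at all 3 of its tested sites away from the promoter. In an intron 51.0 kb downstream of the 5′ end (chr7:130215267-130216269), the fold enrichments were 2.50 and 3.36 in the quiescent libraries, 6.70 and 8.13 in the activated ones and 12.3 and 10.9 in the reactivated ones. The difference between activated and quiescent NSPCs was 1.11 ± 0.24 log2 units, or 2.16-fold (limma, adjusted p = 0.0041). The site 53.3 kb upstream (chr7:130319727-130320463) had 6.01 and 5.27 in the quiescent libraries, 9.99 and 10.2 in the activated ones and 13.7 and 14.4 in the reactivated ones. It differed by 0.66 ± 0.17 log2 units (limma, adjusted p = 0.0121). The site 66.0 kb upstream (chr7:130332490-130333118) was the weakest of them in quiescent NSPCs, at 2.50 and 2.29, with 4.51 and 4.56 in activated and 11.2 and 8.95 in reactivated NSPCs. It differed by 0.73 ± 0.23 log2 units (limma, adjusted p = 0.0407). The quiescent and activated groups did not overlap at any of the 3 sites, as was also so at tested sites that were not called.

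The calls at *Fgfr2* were not kept with every library left out. Such a fit has fewer libraries from which to estimate the spread, and why calls were lost was not tested. At 51.0 kb the call was lost without quiescent replicate 1 (0.82, limma adjusted p = 0.0773) or activated replicate 2 (0.89, 0.0612), and it was kept in 8 of 12 alternatives. At 53.3 kb upstream it was lost without quiescent replicate 2 (0.58, limma adjusted p = 0.0778) or activated replicate 2 (0.50, 0.120), and with averaged peaks (0.37, 0.470), and it was kept in 10 of 13. At 66.0 kb upstream it was kept in 5 of 12 alternatives and lost without any library but reactivated replicate 1, with limma adjusted p-values of 0.0513 to 0.176 and differences of 0.67 to 0.81. Reactivated and activated NSPCs were not called different at these sites.

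An activated-specific site lay 102.1 kb upstream of *Fgfr2* (chr7:130368749-130369133). It had fold enrichments of 4.91 and 5.99 in activated and of 8.34 and 9.53 in reactivated NSPCs, and no peak in quiescent NSPCs. It was the strongest activated-specific site of the receptors by its mean rank within the lists. The 3 upstream sites lie within 50 kb of *Fgfr2* only by the GENCODE gene model, in which a read-through transcript stretches the body to 2960.9 kb. The RefSeq body is 104.4 kb long, and with it these 3 sites fall outside the window. The sequence around the summit of the activated-specific site (chr7:130368891-130369090), in the same form as above, held 1 E-box and no other motif searched.
Fgfr2 activated-specific: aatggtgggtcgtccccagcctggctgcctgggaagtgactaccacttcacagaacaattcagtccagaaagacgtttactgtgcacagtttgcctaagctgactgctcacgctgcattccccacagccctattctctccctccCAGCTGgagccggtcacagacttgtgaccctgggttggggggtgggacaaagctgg

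E-box matches were found in the summit windows of 22 of the 83 sites (26.5%, against 22.7% of all 74759 sites). Among the 8 sites higher in activated NSPCs there were 4, and 42.4% of all such sites in the data held one. Among the 7 quiescent-specific sites there were 2, against 14.9% of all quiescent-specific sites. NFI cores were found in 5 of these 7, against 53.8% of all. No window held the palindromic NFI site, TTGGC followed by GCCAA after 5 bases, which 0.0976% of all windows held. AP-1 matches were found in 9 sites (10.8%, against 7.29%) and SOX cores in 11 (13.3%, against 11.4%). A match is a description of the letters and not evidence of binding.

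*Fgfr3*, a receptor known from astrocytes, had 7 sites, all with peaks in both reactivated libraries. The site 16.2 kb upstream of the 5′ end (chr5:33705015-33706113), in intergenic sequence, had fold enrichments of 3.07 and 1.99 in the quiescent libraries, 6.99 and 3.98 in the activated ones and 10.6 and 11 in the reactivated ones. It was higher in activated than in quiescent NSPCs by 0.88 ± 0.25 log2 units (limma, adjusted p = 0.0243). The activated replicates lay far apart, although the groups did not overlap. The call was kept in 8 of 12 alternatives and lost without quiescent replicate 2 (0.62, limma adjusted p = 0.220) or activated replicate 1 (0.57, 0.239). Of the other sites, 3 were open only in reactivated NSPCs, the strongest at 5.33 and 6.38 in an intron (chr5:33726142-33726547).

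*Fgf1* encodes a growth factor that binds all FGF receptors, and it had 21 sites. All 21 overlap *Arhgap26* or another annotated gene on the same stretch, so that the nearest TSS decided their assignment to *Fgf1*. Of the 21, 13 lie in the RefSeq body of *Fgf1* and 8 outside it. The site with the gain in activated NSPCs was a shared one, 22.9 kb downstream of the 5′ end (chr18:38906292-38906872). It had fold enrichments of 2.63 and 2.67 in the quiescent libraries, 8.84 and 7.22 in the activated ones and 10.6 and 9.96 in the reactivated ones. The groups did not overlap, and the difference of 1.36 ± 0.21 log2 units (limma, adjusted p = 2.6e-04) was kept in all 12 alternatives that gave a value. A quiescent-specific site lay 14.4 kb downstream (chr18:38914907-38915323), with 4.89 and 5.22 in quiescent NSPCs, no peak in activated NSPCs, and 5.51 and 5.06 in reactivated NSPCs.

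*Fgf1* had 2 activated-specific sites. One lay 21.5 kb downstream of the 5′ end (chr18:38907756-38908219), next to the site with the gain, at 3.31 and 2.58 in activated and 3.58 and 2.72 in reactivated NSPCs. The other lay in a UTR exon at the 3′ end of the gene (chr18:38841088-38841443), at 4.77 and 3.57 in activated and 10.3 and 7.05 in reactivated NSPCs. A second quiescent-specific site covered the 5′ promoter itself (chr18:38929371-38929722), at 3.02 and 2.62 in quiescent NSPCs and 3.06 in reactivated replicate 1 alone.

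*Fgf1* thus had peaks at several start sites. At the internal promoter 10.7 kb downstream of the 5′ end (chr18:38918550-38918913), the fold enrichments were 3.97 and 4.10 in the quiescent libraries, 8.56 and 6.16 in the activated ones and 9.62 and 8.97 in the reactivated ones. The groups did not overlap, and the difference of 0.61 ± 0.21 log2 units was not called (limma, adjusted p = 0.0642). It was called under median centring (0.69, limma adjusted p = 0.0326), without normalization (0.85, 0.0266) and at a stricter peak threshold (0.67, 0.0365). The site 1.1 kb upstream of the 5′ end (chr18:38930387-38930745) was open in all states, at 8.12 and 6.75 in the quiescent libraries, 11 and 6.97 in the activated ones and 9.51 and 10.1 in the reactivated ones. Its quiescent and activated values overlapped, with a difference of 0.03 ± 0.18 log2 units (limma, adjusted p = 0.938). The broader H3K4me3 region lay at the internal promoter, with 14.1 in quiescent and 12.1 in activated NSPCs, against 5.58 and 6.47 at the 5′ promoter.

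The sites open only in reactivated NSPCs were spread over 8 of the 9 genes, all but *Fgf2*. Stronger ones lay in *Erbb4* and *Fgfr2*, beside that of *Fgfr3* given above. In a coding exon of *Erbb4* (chr1:68349231-68349469), the fold enrichments in reactivated NSPCs were 5.60 and 6.38, and in an intron (chr1:68961288-68961729) they were 5.20 and 7.05. In an intron of *Fgfr2* (chr7:130166223-130166532) they were 5.87 and 6.12. *Erbb4* also had 2 intronic sites with higher peaks, before normalization, in reactivated NSPCs than in the 1 other library that called them. Without normalization, the median of all tested sites was itself higher in reactivated NSPCs. It was 0.72 log2 units above quiescent and 0.55 above activated NSPCs. One (chr1:69024918-69025257) had 13.2 and 10.6 in reactivated NSPCs and 2.99 in activated replicate 2, and the other (chr1:68961757-68962124) had 10.4 and 7.98 in reactivated NSPCs and 3.90 in quiescent replicate 2. The reactivated lists are the longest. With lists of equal length, 1 of 53 sites of these genes was open only in reactivated NSPCs (1.89%), and so were 3.07% of all sites.

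*Fgf2*, whose protein was added to the medium in every state, had few sites in activated NSPCs. None of its 3 sites had a peak in activated replicate 1, and 1 had a peak in activated replicate 2. *Erbb2* had 1 site with a peak in each of these libraries. A quiescent-specific site at an internal start (chr3:37380100-37380809) had fold enrichments of 3.29 and 2.22 in quiescent NSPCs and 3.20 in reactivated replicate 1. The intronic site 50.8 kb downstream of the 5′ end (chr3:37399062-37399487) had 3.68 and 3.44 in quiescent, 2.99 in activated replicate 2, and 6.27 and 5.45 in reactivated NSPCs. These values were low, and none of the sites could be tested. The gene overlaps antisense genes, which ATAC-seq cannot separate from it.

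Between reactivated and activated NSPCs, 1 of the 25 tested sites was higher (background 8.39%) and 1 was lower (background 6.99%). They were the upstream site of *Erbb4* and the *Fgfr1* site at 24.8 kb, respectively. The unadjusted limma p was under 0.05 at 6 of the 25 sites. The share of all tested sites at this level was not counted, so the 6 are no result about these genes. The median difference was −0.08 log2 units for the 25 sites and −0.01 for all sites tested. Without normalization between libraries the median of all sites rose to 0.55, and 13 of the 25 sites were higher in reactivated NSPCs against 52.6% of all sites tested, so this comparison is stated relative to the rest of the genome.

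Between reactivated and quiescent NSPCs, a comparison added after the values were seen, 8 of the 25 sites were higher (32.0%, background 13.9%). Limma called 0 lower (background 13.0%), and 3 were lower at an unadjusted p under 0.05, for which no share over all sites was counted. Of the 8, 3 belonged to *Fgfr2* and 1 each to *Egfr*, *Erbb2*, *Fgfr1*, *Fgfr3* and *Fgf1*. The quiescent libraries are the same as in the comparison of activated with quiescent NSPCs. Higher were 5 of 28 sites without quiescent replicate 1 (background 10.3%), 5 of 25 without quiescent replicate 2 (8.66%) and 3 of 25 without reactivated replicate 1 (4.28%).

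H3K4me3 away from promoters was weak. Of 17 regions of these genes in quiescent NSPCs, 7 lay away from a promoter (41.2%, background 26.7% of all regions), at fold enrichments of 3.26 to 6.20, in *Egfr*, *Erbb4* and *Fgfr1*. Of 12 regions in activated NSPCs there were 2 (16.7%, background 22.9%), the one at the edge of the *Egfr* gain and the one over the *Fgfr1* group. The quiescent list was the longer one, with 17186 regions against 15980.

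Other genes of the pathway were counted for comparison. The EGF-family ligands (11 genes) had 73 sites in 2 or more libraries, of which 18 were quiescent-specific (24.7%, background 9.08%) and 1 was activated-specific (1.37%, background 6.14%). Among all 45 listed genes, 25 of 213 sites were quiescent-specific (11.7%) and 9 were activated-specific (4.23%). No test was run on these shares or on those of the other groups below, so they are no result about these genes. Of their 19 tested sites, 2 were higher (10.5%, background 6.73%) and 2 lower (10.5%, background 5.50%) in activated NSPCs. At *Ereg*, which encodes the ligand epiregulin, a site lay 29756 bp downstream of the TSS (chr5:91103994-91104763). It fell from 15.6 and 16.0 in quiescent to 6.23 and 4.56 in activated NSPCs, a difference of −1.71 ± 0.15 log2 units (limma, adjusted p = 1.0e-06). At *Nrg1*, which encodes a ligand of ERBB3 and ERBB4, a site rose from 3.55 and 3.97 to 12.5 and 10.2, a difference of 1.36 ± 0.18 (limma, adjusted p = 6.0e-05). The other 4 tested sites of *Nrg1* were not called, with differences of −0.46 to 0.39. The other called sites were one of *Areg*, higher by 0.71 ± 0.16 (limma, adjusted p = 0.0048), and one of *Nrg2*, lower with a difference of −0.81 ± 0.23 (limma, adjusted p = 0.0265). The *Areg* site (chr5:91114412-91115087) lies on the same stretch of chromosome as the *Ereg* site, and only the nearest TSS assigns them to different genes.

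The adaptors and regulators of the receptors (12 genes) had 62 sites, of which 2 were quiescent-specific (3.23%, background 9.08%) and 6 activated-specific (9.68%, background 6.14%). Of their 28 tested sites, 2 were higher and 2 lower (7.14% each). Of 2 tested promoter sites of *Grb2*, an adaptor that links the receptors to RAS, one (chr11:115699090-115699716) was higher in activated NSPCs by 0.67 ± 0.21 log2 units (limma, adjusted p = 0.0418). The other (chr11:115708206-115708907) was not called, with a difference of −0.08 ± 0.18 (limma, adjusted p = 0.838). The other FGFs (20 genes) had 70 sites, of which 3 were quiescent-specific (4.29%) and 1 was activated-specific (1.43%). Of their 21 tested sites, 1 was higher and 1 lower (4.76% each). The remaining FGF receptors (2 genes) had 8 sites, 2 of them quiescent-specific (25.0%) and 1 activated-specific (12.5%), and 4 tested ones. Limma called none of them, and 0 had an unadjusted p under 0.05. Over all 45 listed genes, 5 of 72 tested sites were higher and 5 were lower (6.94% each, against backgrounds of 6.73% and 5.50%), and the median difference was −0.01 log2 units.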

How the data were processed

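ATAC-seq was done on quiescent, activated and reactivated NSPCs (2 libraries each) and ChIP-seq for H3K4me3 in the first and second of these states (1 library each). Per the submitters' processing notes and the methods, the authors trimmed reads with Trim Galore 0.4.0, aligned them to mm10 with Bowtie2 2.2.5, marked duplicates with Picard 1.88, removed them with SAMtools 1.3.1 and called peaks in each library with MACS at an FDR of 0.05, after reducing the reads of the reactivated libraries. HOMER is also named. Broad H3K4me3 peaks used the input as control, with a q of 0.05 and 0.01 as the broad cutoff. The deposited fold enrichment is a linear ratio of pileup to the background of that library. The −log10 values deposited for p and q (p-value and q-value of each peak) grow with depth, and q served only for a stricter threshold. The score the authors deposited and the deposited summit offsets were read, the first unused and the second to centre motif windows. Read depth is unknown from the lists, so no interval for counting error was given.

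Peaks on chromosomes 1 to 19, X and Y were used, which left out 0.287% to 0.864% of an ATAC-seq list. Peaks of all 6 lists were merged where they overlap or abut. TSSs were those of coding transcripts in GENCODE M21, and the midpoint of a site gave its distance. Distances from a 5′ end use RefSeq. The authors' fold enrichment was taken to log2, normalized by cyclic loess and tested with limma 3.58.1 in R 4.3.3 (trended eBayes over 23116 sites with a peak in all 6 libraries, Benjamini-Hochberg adjusted p under 0.05). Between-state effects are log2 differences with their SE. Python 3.11.15, numpy 2.4.6, pandas 2.3.3, pysam 0.24.0 and matplotlib 3.10.9 were used otherwise. The limma fit and the merging, classes and nearest TSSs were tested on simulated data with known answers.

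The 9 genes, the lists of pathway and marker genes and the tests were chosen with earlier results of these data known. Sites were named by a rule: the promoter sites of each gene, up to 3 sites per gene of each state-specific class that ranked highest by fold enrichment within the lists, and up to 3 per gene and direction with the largest called difference. Other sites are named for context and were chosen after their values were seen. The alternatives were other windows, annotations, peak thresholds, list lengths, overlaps and normalizations, a replicate block, and each library left out. Some of the marker genes are not reported here.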

Additional observations from a re-analysis of the deposited data

How the results depend on the processing

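Counts of sites depended on how peaks were assigned. The counts of this paragraph stand without the shares over all sites, so they show how far the counts move and are no result about these genes. With the nearest TSS of any annotated gene, 45 sites, 3 quiescent-specific and 2 activated-specific were left. A minimum −log10 q of 10 gave 4 quiescent-specific sites, lists of equal length (47037 peaks) gave 53 sites and 7 activated-specific ones, and merging only the 4 quiescent and activated lists gave 49 sites. With each library left out, the ranges were 65 to 83 sites, 7 to 13 quiescent-specific and 4 to 11 activated-specific. RefSeq gene bodies, an alternative chosen after seeing the data, gave 79 sites, of which 7 were quiescent-specific and 3 activated-specific.

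For the tests, 8 sites were higher and 2 lower in activated than in quiescent NSPCs, and 1 was higher and 1 lower in reactivated than in activated NSPCs. Higher in activated NSPCs were 2 of 9 sites at the stricter q (3.86% of all sites) and 3 when the peaks of a site were averaged (2.91%). Lower in activated NSPCs were 0 under quantile normalization (4.63% of all sites), without normalization (1.91%) and with averaged peaks (2.06%). There were 5 of 83 when the lowest fold enrichment stood for a missing peak (6.17%), and 1 at the stricter q (3.15%). Higher in reactivated NSPCs were 0 under median centring (1435 of all 23116 sites), quantile normalization (2152) and averaged peaks (978). Without normalization there were 13 (52.6% of all sites). Lower in reactivated NSPCs were 3 with missing peaks filled in (2604 of all 74759 sites) and 0 at the stricter q (992 of 14397). With each library left out, the ranges were 4 to 7 higher (4.56% to 5.24% of all sites) and 0 to 1 lower (2.68% to 5.02%) in activated NSPCs. In reactivated NSPCs they were 0 to 1 higher (156 to 1879 of all sites) and 1 to 1 lower (137 to 1613). Between reactivated and quiescent NSPCs, where 8 were higher and 0 lower, 22 of 25 were higher without normalization (68.2% of all sites), 4 of 83 with missing peaks filled in (3.52%), 2 of 9 at the stricter q (12.0%), 5 of 25 with averaged peaks (9.59%) and 3 to 8 with a library left out. Lower were 1 under median centring (26.8%), 2 of 83 with missing peaks filled in (7.03%) and 0 to 0 with a library left out. No difference of a named site changed sign with a call. Of 259 values of named sites under alternatives, 58 lost a call and 3 gained one; the cause was not tested.

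After normalization, same-numbered libraries did not deviate together (r = 0.0140, 0.0284 and −0.0054 over 23116 sites). This cannot show whether they shared an animal, a culture or a preparation batch, which is not known. With the replicate block, 8 sites were higher and 2 lower in activated NSPCs, and 1 higher and 1 lower in reactivated NSPCs. Among all sites the block gave 1629 higher and 1346 lower, against 1555 and 1272 without it.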
